A study of Mus musculus with 8 samples.

Results

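E proteins are transcription factors with a basic region and a helix-loop-helix, by which they pair with one another or with a partner and bind the DNA motif called the E-box. Here 7 genes of this network were followed across dendritic cell progenitors of mouse bone marrow: the E protein genes Tcf3 (which encodes E2A), Tcf4 (E2-2) and Tcf12 (HEB), the inhibitor genes Id1 and Id3, and the genes of the haematopoietic partners Lyl1 and Tal1. The members were chosen by name and role, with earlier results of these data known, so their counts beside the shares of all genes are descriptive. Each was measured by 1 probe set whose annotation gave that symbol alone, so the set is 7 of the 19938 genes tested.

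Id proteins have the helix-loop-helix but no basic region, so an E protein paired with an Id protein does not bind DNA. In dendritic cell development Tcf4 is known for maintaining the plasmacytoid fate and Id2 for opposing it in conventional dendritic cells. In early lymphoid cells E2A and HEB are known activators of antigen receptor recombination and B lineage genes, while Lyl1 and Tal1 pair with E proteins in blood stem and progenitor cells.

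RNA of 4 sorted bone marrow populations was hybridised to Affymetrix mouse arrays, with 2 arrays each and 8 in all. They were Id2-GFP+ pre-CD8, Id2-GFP- pre-CD8, Id2-GFP+ CDP and Id2-GFP- CDP cells. CDP stands in the field for the common dendritic cell progenitor, pre-CD8 is a progenitor that the labels do not define further, and GFP is a green reporter that the titles place in Id2. The genotype field gives heterozygous Id2-IRES-GFP reporter mice for the Id2-GFP- CDP samples and heterozygous Zbtb46-GFP reporter mice for the other 3 groups, although every source label names the Id2 reporter. Ages, sexes, gates and pooling of animals were not used here.

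Values are log2 of the deposited RMA intensity, differences are between group means of log2 values, and a gene was called at a limma adjusted p under 0.05 over all genes. Mean intensity was 461 to 478 on 4 brighter arrays and 402 to 414 on 4 dimmer arrays, and every group had 1 array of either kind. The labels do not give this split into sets, which was made here at the widest gap in mean intensity. It moved the counts of calls, so member results and list counts with the set as a block are given beside those without it. In the pre-CD8 reporter comparison 6.26% of all genes were called by limma and 24.2% with the block. In the CDP reporter comparison 0.597% and 7.85% were, and counts of listed genes and markers stand beside these shares. Whether replicates came from separate animals is not stated in the labels, so a p-value here reflects array-to-array spread that may be technical. Of 12 markers of dendritic cell progenitors, those whose group mean was below the median of all genes numbered 0 in Id2-GFP+ pre-CD8, 2 in Id2-GFP- pre-CD8, 0 in Id2-GFP+ CDP and 1 in Id2-GFP- CDP. In the pre-CD8 reporter comparison 6 of them rose and 3 fell by limma (8 and 4 with the set as a block). Those that rose include Batf3, Clec9a and Irf8, which are also among the markers of type 1 conventional dendritic cells counted below. Flt3, a growth factor receptor of these cells, lay between log2 10.73 and 12.58 and Irf8, a transcription factor of the lineage, between 11.45 and 13.01 on the 8 arrays.

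Promoters of 5 of the 7 members (Tcf3, Tcf12, Id3, Lyl1 and Tal1) were taken from RefSeq promoter sequences of mouse build GRCm38.p6. Shown are the 250 bases before the start of Lyl1, which fell in the pre-CD8 reporter comparison below, and, for contrast, of its close relative Tal1 (the upstream one of its listed starts) and of the E protein gene Tcf3, neither of which passed. Capitals mark each E-box (CANNTG, either strand), the motif that E proteins bind, and all are written 5′ to 3′ on the gene's strand.
Lyl1, chr8:84701207-84701456, plus strand: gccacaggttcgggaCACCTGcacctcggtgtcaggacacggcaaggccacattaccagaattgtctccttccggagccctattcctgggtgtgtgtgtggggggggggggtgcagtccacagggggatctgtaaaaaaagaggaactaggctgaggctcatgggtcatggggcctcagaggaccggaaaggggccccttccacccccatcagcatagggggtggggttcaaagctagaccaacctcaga
Tal1, chr4:115056176-115056425, plus strand: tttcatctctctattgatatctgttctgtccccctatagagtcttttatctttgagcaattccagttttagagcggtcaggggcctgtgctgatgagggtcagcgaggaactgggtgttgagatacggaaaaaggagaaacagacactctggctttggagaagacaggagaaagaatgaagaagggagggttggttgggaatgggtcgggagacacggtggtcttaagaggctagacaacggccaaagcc
Tcf3, chr10:80433636-80433885, minus strand: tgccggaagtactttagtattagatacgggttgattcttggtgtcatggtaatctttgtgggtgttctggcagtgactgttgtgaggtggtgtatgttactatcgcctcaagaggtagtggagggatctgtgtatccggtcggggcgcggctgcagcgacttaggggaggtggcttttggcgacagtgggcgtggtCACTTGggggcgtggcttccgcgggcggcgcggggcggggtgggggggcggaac

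The Lyl1 and Tcf3 stretches hold 1 E-box each, and the Tal1 stretch holds none of these letters. Of the stretches not shown, those of the 3 listed Tcf12 starts hold 1, 1 and 0, and those of Id3 and of the other Tal1 start hold 0. Of all 32851 promoter stretches of the same length 66.2% held an E-box. That of Lyl1 has the form CACCTG, a subset of the general motif that was held by 17.2% of all stretches.

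Motifs of other factor families were searched on both strands as well. The letters CGGAAG, a motif of ETS factors, occurred 2 times in the Tcf3 stretch and 1 time in the Lyl1 stretch, and 13.6% of all stretches held it. The GATA factor motif, whose letters are AGATAA, occurred 1 time in the Tal1 stretch, and 9.99% of all stretches held it. It did not occur before the other listed Tal1 start. These matches describe the sequence and say nothing about binding in these cells.

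**Figure D1:**
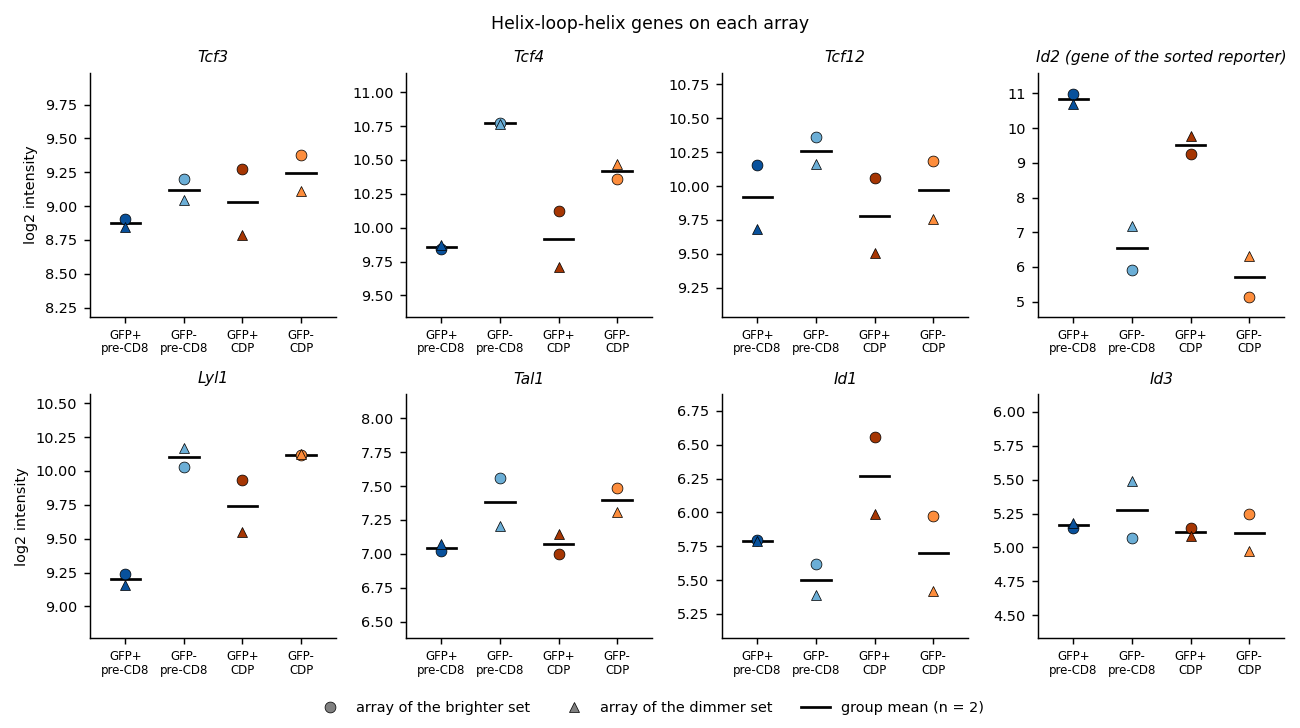
Log2 intensity (vertical axis, own scale in each panel) of the 7 members and of Id2 on each array, by group (horizontal axis); circles are arrays of the brighter set, triangles of the dimmer set and bars group means (n = 2). Tcf4, Lyl1 and Tal1 lie lower on all 4 Id2-GFP+ arrays than on all 4 Id2-GFP- arrays.

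Id2 is the inhibitor on whose reporter the cells were sorted, and its own transcript is given for scale. It read log2 10.69 and 10.99 in Id2-GFP+ pre-CD8 against 5.90 and 7.18 in Id2-GFP- pre-CD8, and 9.77 and 9.26 in Id2-GFP+ CDP against 5.14 and 6.30 in Id2-GFP- CDP. The reporter difference was 4.30 ± 0.48 (log2 ± SE, limma adjusted p of 0.00215) in pre-CD8 and 3.79 ± 0.48 (0.0172) in CDP, the CDP call being lost without replicate 1 of Id2-GFP- CDP or either Id2-GFP+ CDP array. No member moved by as much: the largest difference of any member between any pair of groups was 0.92 on the log2 scale, for Lyl1.

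In the pre-CD8 reporter comparison 2 of the 7 members, Tcf4 and Lyl1, fell in Id2-GFP+ cells and 0 rose by limma, where 6.26% of all genes were called. With the array set as a block 3 fell, Tcf12 being added, where 24.2% of all genes were called. The median difference of the 7 members was -0.34, against -0.01 over all genes. The arrays of the 2 groups did not overlap for 6 of the 7 members (5 lower and 1 higher in Id2-GFP+ cells), where 40.5% of all genes did not overlap.

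Tcf4, the E protein gene of plasmacytoid dendritic cells, read log2 9.87 and 9.84 in Id2-GFP+ pre-CD8, against 10.77 and 10.77 in Id2-GFP- pre-CD8. Both Id2-GFP+ arrays lay below both Id2-GFP- arrays, and replicates differed far less than the groups did. The difference was -0.91 ± 0.19 (SE, n = 2 each, 95% interval -1.36 to -0.46), or 1.88-fold lower, with a limma adjusted p of 0.0299. It was -0.93 within the brighter set and -0.89 within the dimmer set, with an adjusted p of 2.82e-04 with the set as a block.

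Lyl1, a helix-loop-helix partner of E proteins in progenitors, read 9.16 and 9.24 in Id2-GFP+ pre-CD8, against 10.03 and 10.17 in Id2-GFP- pre-CD8. The groups again did not overlap. The difference was -0.90 ± 0.20 (95% interval -1.36 to -0.44), or 1.87-fold lower, with a limma adjusted p of 0.0340, and -0.79 and -1.01 within the brighter and dimmer sets. The calls of Tcf4 and Lyl1 were each lost without any 1 of 6 arrays, the Id2-GFP- CDP arrays and all 4 pre-CD8 arrays, with adjusted p-values up to 0.175 and 0.207.

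The other E protein genes had lower means in Id2-GFP+ pre-CD8 without passing. Tcf12, which encodes HEB, read 9.68 and 10.16 in Id2-GFP+ pre-CD8, against 10.36 and 10.16 in Id2-GFP- pre-CD8, a difference of -0.34 ± 0.27 (95% interval -0.96 to 0.28). The nearer arrays of the groups were both at 10.16 after rounding, and the replicates of Id2-GFP+ pre-CD8 lay farther apart than the group means, the lower value being the dimmer array. With the array set as a block the adjusted p of Tcf12 was 0.0399, against 0.740 without it. Tcf3, which encodes E12 and E47 by splicing that this probe set was not used to resolve, read 8.84 and 8.90 in Id2-GFP+ pre-CD8, against 9.20 and 9.05 in Id2-GFP- pre-CD8. Its difference of -0.25 ± 0.23 (95% interval -0.77 to 0.28) had an adjusted p of 0.808, or 0.205 with the set as a block.

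Tal1, the blood stem cell relative of Lyl1, read 7.07 and 7.02 in Id2-GFP+ pre-CD8, against 7.56 and 7.21 in Id2-GFP- pre-CD8. Its difference of -0.34 ± 0.20 (95% interval -0.79 to 0.11) did not pass, with a limma adjusted p of 0.530 and 0.139 with the set as a block. The Id2-GFP- replicates lay as far apart as the groups. Among the inhibitors, Id1 read 5.79 and 5.80 in Id2-GFP+ pre-CD8, against 5.62 and 5.39 in Id2-GFP- pre-CD8, with a difference of 0.29 ± 0.25 (95% interval -0.28 to 0.86). Id3 read 5.18 and 5.15 in Id2-GFP+ pre-CD8, against 5.07 and 5.49 in Id2-GFP- pre-CD8, where the groups overlapped, with a difference of -0.12 ± 0.18 (95% interval -0.53 to 0.30). Both inhibitors were dim: their means over the 8 arrays lay below the median of all genes, where RMA compresses differences.

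The same comparison in CDP gave 0 of the 7 members by limma, where 0.597% of all genes were called, and 2 members, Tcf4 and Id1, at an unadjusted p under 0.05. With the set as a block 1 member, Tcf4, fell, where 7.85% of all genes were called. The arrays did not overlap for 4 of the 7 members, where 25% of all genes did not. Tcf4 read 9.71 and 10.12 in Id2-GFP+ CDP and 10.36 and 10.47 in Id2-GFP- CDP, so both Id2-GFP+ arrays were below both Id2-GFP- arrays. Its difference was -0.50 ± 0.19 (95% interval -0.95 to -0.05), with a limma adjusted p of 0.788 and 0.0344 with the set as a block, and -0.24 and -0.76 within the brighter and dimmer sets. Id1 read 5.99 and 6.55 in Id2-GFP+ CDP and 5.97 and 5.42 in Id2-GFP- CDP. Its difference was 0.57 ± 0.25 (95% interval 0.004 to 1.14), with an adjusted p of 0.904, or 0.0507 with the set as a block, and it was nearly equal within the brighter (0.58) and dimmer (0.57) sets.

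Lyl1 read 9.55 and 9.93 in Id2-GFP+ CDP and 10.12 and 10.12 in Id2-GFP- CDP, a difference of -0.38 ± 0.20 (95% interval -0.83 to 0.08). Tal1 read 7.14 and 6.996 in Id2-GFP+ CDP and 7.49 and 7.31 in Id2-GFP- CDP, a difference of -0.33 ± 0.20 (95% interval -0.78 to 0.12). For both the Id2-GFP+ arrays lay below the Id2-GFP- arrays without passing. Tcf3 (8.79 and 9.27 in Id2-GFP+ CDP, 9.38 and 9.11 in Id2-GFP- CDP) overlapped between the groups. Tcf12 (9.51 and 10.06 in Id2-GFP+ CDP, 10.18 and 9.76 in Id2-GFP- CDP) and Id3 (5.09 and 5.14 in Id2-GFP+ CDP, 5.24 and 4.97 in Id2-GFP- CDP) overlapped too. Their differences were -0.22 ± 0.23, -0.19 ± 0.27 and 0.01 ± 0.18, and the sign of each turned when a single CDP array was left out. Where Id2-GFP- CDP is compared with another group, the group and the genotype field change together and cannot be told apart.

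**Figure D2:**
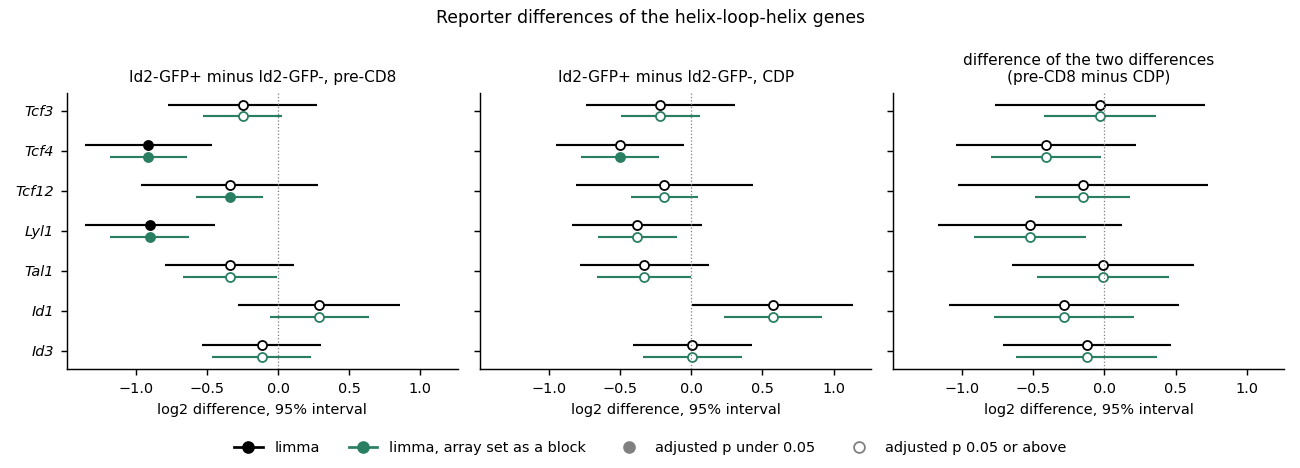
Log2 difference (horizontal axis) with its 95% interval for the 7 members in the reporter comparison of pre-CD8, of CDP, and in the difference of the 2; black is limma, green limma with the array set as a block, and filled points have an adjusted p under 0.05. Tcf4 (-0.91) and Lyl1 (-0.90) are filled in black, in pre-CD8 alone.

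Whether the reporter difference itself differed between the stages was tested with an interaction contrast. By limma 0 of the 7 members passed, with 0 at an unadjusted p under 0.05, where 0.145% of all genes were called, and with the set as a block 0 members passed, where 7.48% of all genes were called. The larger values were those of Lyl1, at -0.52 ± 0.28 (95% interval -1.17 to 0.12), and Tcf4, at -0.41 ± 0.28 (95% interval -1.04 to 0.22). Tcf4 and Lyl1 are thus not shown to differ between the stages in their reporter difference.

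Seen over all arrays, 3 of the 7 members, Tcf4, Lyl1 and Tal1, were lower on each of the 4 Id2-GFP+ arrays than on each of the 4 Id2-GFP- arrays, and 4.53% of all genes were. Tcf4 lay between 9.71 and 10.12 on the Id2-GFP+ arrays and between 10.36 and 10.77 on the Id2-GFP- arrays. Lyl1 lay between 9.16 and 9.93 on the Id2-GFP+ arrays and between 10.03 and 10.17 on the Id2-GFP- arrays. Tal1 lay between 6.996 and 7.14 on the Id2-GFP+ arrays and between 7.21 and 7.56 on the Id2-GFP- arrays. The gaps between the classes were small for Lyl1 and Tal1, so the order over arrays rests on a narrow margin there.

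**Figure D3:**
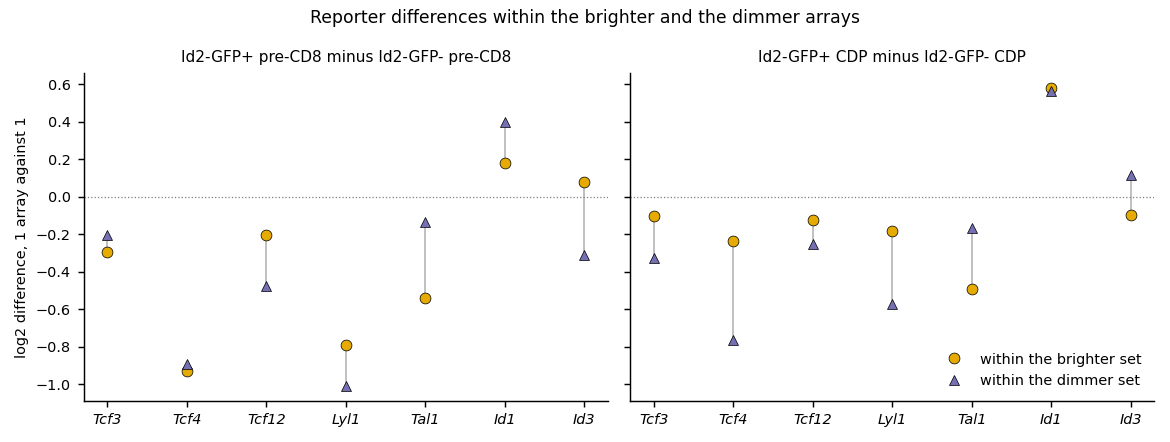
Log2 difference of 1 Id2-GFP+ array against 1 Id2-GFP- array (vertical axis) for each member (horizontal axis) within the brighter (circles) and the dimmer (triangles) set, in pre-CD8 and in CDP. The points of Tcf3, Tcf4, Tcf12, Lyl1 and Tal1 lie below 0 and those of Id1 above 0 in both sets and stages, while those of Id3 lie on either side.

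No member passed between the stages within either reporter class. Among Id2-GFP- cells 0 of the 7 members passed by limma for pre-CD8 against CDP, with 0 at an unadjusted p under 0.05, where 1.63% of all genes were called. With the set as a block 0 passed as well, where 12.5% of all genes were called. Tcf4 differed by 0.36 ± 0.19 (95% interval -0.09 to 0.80), with both Id2-GFP- pre-CD8 arrays above both Id2-GFP- CDP arrays. Lyl1 and Tal1 differed by -0.02 ± 0.20 each, with 95% intervals of -0.47 to 0.44 in both cases.

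Among Id2-GFP+ cells 0 of the 7 members passed by limma for pre-CD8 against CDP, where 0% of all genes were called (643 genes at an unadjusted p under 0.05), and 0 with the set as a block, where 2.08% were. At an unadjusted p under 0.05 there was 1 member, Lyl1 (difference -0.54 ± 0.20, 95% interval -0.997 to -0.08, adjusted p of 1.00, or 0.0563 with the set as a block). Both of its pre-CD8 arrays were below both CDP arrays. Tcf4 differed by -0.06 ± 0.19 (95% interval -0.50 to 0.39) and overlapped. Id1 differed by -0.48 ± 0.25 (95% interval -1.05 to 0.09), without overlap, and the CDP replicates, at 5.99 and 6.55, lay farther apart than the groups' means.

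The remaining pairs cross both stage and reporter. Id2-GFP+ pre-CD8 against Id2-GFP- CDP gave 0 of the 7 members by limma, with 2 (Tcf4 and Lyl1) at an unadjusted p under 0.05, where 1.79% of all genes were called. With the set as a block these 2 fell, where 15.8% of all genes were called. Lyl1 differed by -0.92 ± 0.20 (95% interval -1.38 to -0.46), with an adjusted p of 0.0727 by limma and 6.87e-04 with the set as a block, and Tcf4 by -0.56 ± 0.19, with 0.321 and 0.0113.

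Id2-GFP- pre-CD8 against Id2-GFP+ CDP gave 1 of the 7 members by limma, where 4.89% of all genes were called, and 3 with the set as a block, where 21.9% were. Tcf4 rose in Id2-GFP- pre-CD8 by 0.85 ± 0.19 (95% interval 0.41 to 1.30), with a limma adjusted p of 0.0460, which was lost without any 1 array other than replicate 2 of Id2-GFP+ CDP, with adjusted p-values up to 0.227. With the set as a block Tcf12 rose too, at 0.48 ± 0.11 with an adjusted p of 0.00794, and Id1 fell, at -0.77 ± 0.16 with an adjusted p of 0.00463. Without it Tcf12 and Id1 had adjusted p-values of 0.546 and 0.158.

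In the order of group means Tcf4 ran, from high to low, through Id2-GFP- pre-CD8 (10.77 ± 0.003, SD, n = 2), Id2-GFP- CDP (10.41 ± 0.08), Id2-GFP+ CDP (9.92 ± 0.29) and Id2-GFP+ pre-CD8 (9.86 ± 0.02). By limma only the highest differed from a lower group, from each Id2-GFP+ group, and no neighbours in the order differed beyond the test. Lyl1 ran through Id2-GFP- CDP (10.12 ± 0.005), Id2-GFP- pre-CD8 (10.10 ± 0.10), Id2-GFP+ CDP (9.74 ± 0.27) and Id2-GFP+ pre-CD8 (9.20 ± 0.06), with the second and the last differing by limma. Tcf3 and Tal1 had the order of Lyl1 and Tcf12 had Id2-GFP+ CDP lowest, and by limma without the set as a block no pair of groups passed for these 3 genes. Id1 was highest in Id2-GFP+ CDP (6.27 ± 0.40) and lowest in Id2-GFP- pre-CD8 (5.50 ± 0.16). Id3 was nearly flat, its group means spanning 0.17 on the log2 scale, where the median gene spanned 0.28.

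Genes with the pattern most like each member were found by Pearson correlation over the 8 arrays among 1513 genes whose group means spanned at least log2 1 and whose mean was above the median of all genes, leaving out predicted genes, antigen receptor segments, small RNAs and olfactory receptors. These values describe the likeness, and the arrays share groups and intensity sets. Nearest to Tcf4 were Zdhhc1 (r of 0.99), Armcx2 (0.99) and Cilk1 (0.98). Nearest to Lyl1 were Apcdd1 (0.97), Pde4d, a cyclic AMP phosphodiesterase gene (0.97), and Cst7, a cystatin gene (0.97). Tcf3 was most like Wdr18 (0.97), the spermidine synthase gene Srm (0.96) and Cenpv (0.96), and Tcf12 most like Klhl24 (0.95), the peptide transporter gene Tap2 (0.95) and Trp53bp1 (0.95).

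Id1 followed genes of granulocyte and monocyte precursors: Aoah, a lipopolysaccharide hydrolase gene (r of 0.97), Elane, the neutrophil elastase gene (0.97), and Ms4a3 (0.97). Elane averaged log2 9.72 for Id2-GFP+ pre-CD8, 8.45 in Id2-GFP- pre-CD8, 11.12 in Id2-GFP+ CDP and 9.84 in Id2-GFP- CDP. Of 12 neutrophil and granule markers 8 rose and 1 fell by limma in Id2-GFP+ against Id2-GFP- pre-CD8 (9 and 2 with the set as a block), and 8 rose and 0 fell in the CDP comparison (8 and 2). Their summed intensity was 40320 to 46519 in Id2-GFP+ pre-CD8, 13241 to 17109 in Id2-GFP- pre-CD8, 58665 to 87615 in Id2-GFP+ CDP and 17954 to 30375 in Id2-GFP- CDP. Their part in the Id1 values was not tested. Likeness was lower for Tal1, with Zfp239 (0.91), Ppm1f (0.87) and Ncs1 (0.87), and lowest for Id3, with Nrgn (0.676), Tpm2 (0.675) and Blk (0.675). Between the members themselves the closest were Tcf4 and Lyl1 (r of 0.83 over 8 arrays) and Tcf3 and Lyl1 (0.76), and Id2 ran opposite to Tal1 (-0.90), Lyl1 (-0.89) and Tcf4 (-0.83).

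Further genes of the network were counted by role, and the lists come from general knowledge of these factors. They were chosen with earlier results of these data known, so their counts beside the shares of all genes are descriptive. Of known targets of E proteins in early lymphoid cells, 8 of 21 measured genes fell in the pre-CD8 reporter comparison and 0 rose by limma, where 6.26% of all genes were called, with a median of -0.72 against -0.01 over all genes. Rag2 and Rag1, the recombinase genes, averaged 4.56 and 5.13 in Id2-GFP+ pre-CD8 against 7.65 and 9.04 in Id2-GFP- pre-CD8, with differences of -3.09 ± 0.14 and -3.91 ± 0.32. The interleukin 7 receptor gene Il7r differed by -3.91 ± 0.26 and the adaptor gene Blnk by -3.93 ± 0.34. The count was 6 to 8 with each array left out in turn, and 12 fell and 1 rose with the set as a block, where 24.2% of all genes were called. In CDP the same list had 0 genes passing by limma (1 rising and 4 falling with the set as a block) and a median of 0.05.

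The same targets were counted for Id2-GFP- pre-CD8 against the CDP groups. By limma 6 of 21 rose against Id2-GFP- CDP, where 1.63% of all genes were called, with Rag2 at 2.74 ± 0.14, Il7r at 3.64 ± 0.26 and Rag1 at 4.08 ± 0.32. The count was 4 to 7 with each array left out in turn, lowest without replicate 1 of Id2-GFP- CDP, and 10 rose with the set as a block (12.5% of all genes called). Against Id2-GFP+ CDP 7 of 21 rose, where 4.89% of all genes were called, and 12 rose with the set as a block (21.9% of all genes called). The interaction contrast passed for Rag2 (-3.13 ± 0.20, adjusted p of 0.00363), Rag1 (-4.07 ± 0.45, 0.0210) and Il7r (-3.28 ± 0.37, 0.0222), where 0.145% of all genes were called. With each array left out in turn Rag2 kept its call, with adjusted p-values of 0.0159 to 0.0492. Rag1 lost its call without any 1 array other than replicate 1 of Id2-GFP- pre-CD8 (adjusted p of 0.0159 to 0.106), and Il7r without any 1 array other than replicate 1 of Id2-GFP+ CDP (0.0299 to 0.140). The block on the set gave 9 of the 21 targets passing, where 7.48% of all genes were called. Tcf3, which encodes the E protein best known at these targets, passed in no pair of groups by limma, with or without the set as a block. The part of Tcf3 or any other member in the values of these targets was not tested. Most of the B lineage markers are also among these targets, Blnk, Ebf1 and Pax5 included, so the lists are not separate readings. Of 11 B lineage markers 5 fell and 1 rose by limma in Id2-GFP+ against Id2-GFP- pre-CD8 (7 and 1 with the set as a block). Their summed intensity was 2508 to 2674 on the Id2-GFP+ pre-CD8 arrays, 2724 to 3568 in Id2-GFP- pre-CD8, 1712 to 1868 on the Id2-GFP+ CDP arrays and 1201 to 1509 in Id2-GFP- CDP. The B lineage factor genes Pax5 (5.72 to 5.74 in Id2-GFP+ pre-CD8, 6.12 to 6.81 in Id2-GFP- pre-CD8) and Ebf1 (4.71 to 4.85 in Id2-GFP+ pre-CD8, 7.44 to 8.06 in Id2-GFP- pre-CD8) did not overlap between the groups, as 40.5% of all genes did not. By limma Ebf1 fell by 2.97 ± 0.33, and Pax5 did not pass at -0.74 ± 0.25 (adjusted p of 0.153). With the set as a block Pax5 fell as well. In sorted bulk samples fewer cells of a type and less RNA per cell cannot be told apart, and the part of B lineage cells in the values of Tcf4 was not tested.

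**Figure D4:**
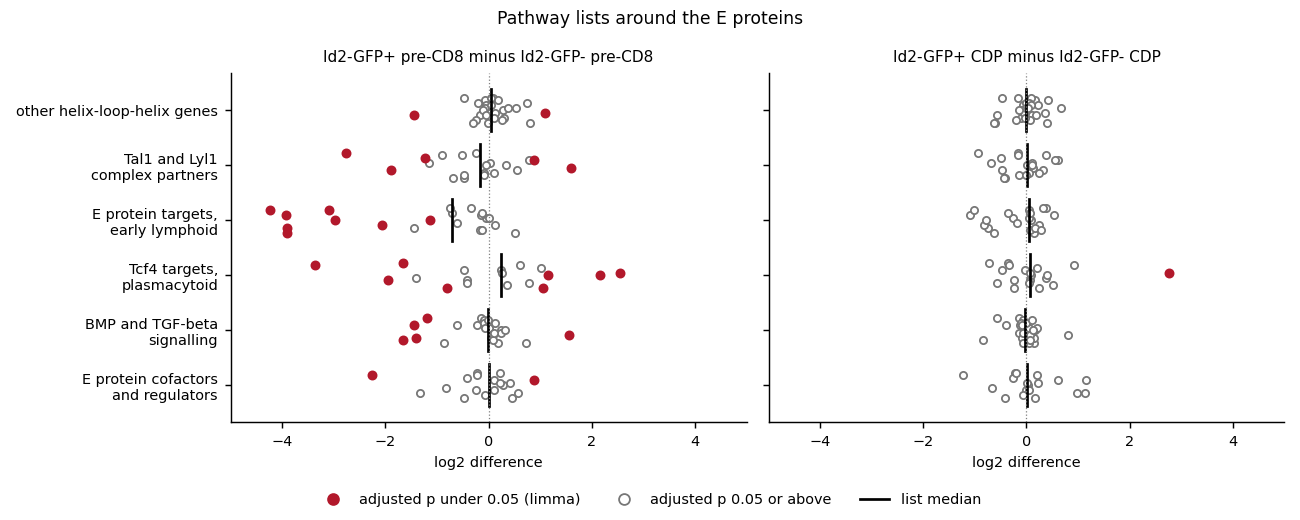
Log2 difference (horizontal axis) of each gene of 6 lists around the E proteins (vertical axis, points spread for visibility) in the pre-CD8 and the CDP reporter comparison; red points have a limma adjusted p under 0.05 and bars are list medians. In pre-CD8 all 8 called targets of early lymphoid cells lie below 0, and the 8 called targets of plasmacytoid dendritic cells lie on both sides.

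Known Tcf4 targets and companions of plasmacytoid dendritic cells moved both ways in the pre-CD8 comparison, with a median of 0.24. By limma 4 of 19 fell and 4 rose, where 6.26% of all genes were called. With the set as a block 8 fell and 7 rose, where 24.2% of all genes were called. Irf8, which rose, is also among the markers of type 1 conventional dendritic cells counted below. Tlr7, a sensor of single-stranded RNA, fell by 3.38 ± 0.36, averaging 5.995 in Id2-GFP+ pre-CD8, against 9.37 in Id2-GFP- pre-CD8. Tlr9, a sensor of unmethylated DNA, rose by 2.15 ± 0.27, averaging 10.13 in Id2-GFP+ pre-CD8, against 7.97 in Id2-GFP- pre-CD8. The oxidase subunit gene Cybb rose by 2.54 ± 0.30, and the chemokine receptor gene Ccr9 fell by 1.94 ± 0.31. The count of 8 went down to 5 without either Id2-GFP+ pre-CD8 array. Siglech, a defining surface gene of these cells, did not pass by limma at -1.66 ± 0.60 but fell with the set as a block. It read 8.53 and 10.44 on the Id2-GFP- pre-CD8 arrays. In CDP 1 of 19 genes passed by limma, Cybb at 2.77 ± 0.30, a call lost without replicate 1 of Id2-GFP- CDP, while the block on the set gave 3 rising and 2 falling. Of 11 plasmacytoid dendritic cell markers 3 fell and 1 rose by limma in the pre-CD8 comparison (6 and 2 with the set as a block), and their summed intensity was 4717 to 5990 in Id2-GFP+ pre-CD8, 5598 to 7388 in Id2-GFP- pre-CD8, 4235 to 5269 in Id2-GFP+ CDP and 5571 to 6365 in Id2-GFP- CDP. These 11 markers all belong to the 19 targets above, so their counts are not a separate reading. Their part in the Tcf4 values was not tested.

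Between the stages, in Id2-GFP- pre-CD8 against Id2-GFP- CDP, 2 of these 19 targets rose by limma and 0 fell. These were Ccr9, by 3.51 ± 0.31, and Tlr7, by 2.60 ± 0.36, where 1.63% of all genes were called. The block on the set gave 6 rising and 7 falling, where 12.5% of all genes were called. The count of 2 was 1 without either Id2-GFP- CDP array. In Id2-GFP- pre-CD8 against Id2-GFP+ CDP, the pair in which Tcf4 rose, 3 of the 19 targets rose and 4 fell by limma. Of all genes 4.89% were called there, or 21.9% with the set as a block. Ccr9 differed by 3.45 ± 0.31, Tlr7 by 2.94 ± 0.36, Cybb by -3.76 ± 0.30 and Tlr9 by -1.53 ± 0.27. That count of 7 was 3 to 6 with each array left out in turn, lowest without replicate 2 of Id2-GFP+ CDP, while the block on the set gave 7 rising and 7 falling. In Id2-GFP+ pre-CD8 against Id2-GFP- CDP 3 rose and 1 fell, where 1.79% of all genes were called (15.8% with the set as a block). They included the interferon regulator gene Irf7 at 2.13 ± 0.37 and Tex2 at -1.33 ± 0.21. None of these 4 passed without either Id2-GFP- CDP array or without replicate 2 of Id2-GFP+ pre-CD8, while the block on the set gave 6 rising and 3 falling.

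Partners of the Tal1 and Lyl1 complex also moved both ways in pre-CD8, 3 of 20 falling and 2 rising by limma, where 6.26% of all genes were called. The block on the set gave 9 falling and 4 rising, where 24.2% were called. Erg, an ETS factor gene of stem cells, fell by 2.77 ± 0.38, averaging 7.06 in Id2-GFP+ pre-CD8, against 9.83 in Id2-GFP- pre-CD8. The bridging protein gene Ldb1 fell by 1.23 ± 0.20 and the homeobox gene Meis1 by 1.89 ± 0.44. Lmo1, which encodes a LIM-only adaptor, rose by 1.60 ± 0.21. Meis1 and Cbfa2t3, a corepressor gene that rose by 0.87 ± 0.21, had adjusted p-values of 0.0449 and 0.0483. Lmo2, the LIM-only adaptor known from the blood stem cell complex, did not pass by limma at -0.69 ± 0.43 but fell with the set as a block. The count of 5 went down to 2 without replicate 1 of Id2-GFP- pre-CD8 or either Id2-GFP+ pre-CD8 array, and 0 of 20 passed in CDP by limma (1 rising and 3 falling with the set as a block).

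Beside Lyl1 and Tal1, markers of the other lineages that use them were examined. Of 11 erythroid and megakaryocyte markers 0 passed by limma in either reporter comparison (1 rising in each with the set as a block), with Gata1 between 5.72 and 6.26 and Klf1 between 4.32 and 4.75 over the 8 arrays. Of 11 early progenitor markers 6 fell and 0 rose by limma in Id2-GFP+ against Id2-GFP- pre-CD8 (9 and 1 with the set as a block), with a median of -1.85. Their summed intensity was 4286 to 6136 in Id2-GFP+ pre-CD8, 11526 to 15911 in Id2-GFP- pre-CD8, 4827 to 7878 in Id2-GFP+ CDP and 7578 to 10866 in Id2-GFP- CDP. Meis1 and Gata2 belong both to that list and to the complex partners, so the lists are not separate readings. The part of early progenitor genes in the Lyl1 values was not tested.

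Markers of type 1 conventional dendritic cells (cDC1) moved with the reporter. By limma 9 of 12 rose and 0 fell in pre-CD8 (10 and 0 with the set as a block), with a median of 1.715, and 4 of 12 rose in CDP (6 with the set as a block). Their summed intensity was 24103 to 31144 in Id2-GFP+ pre-CD8, 10410 to 11212 in Id2-GFP- pre-CD8, 18254 to 19120 in Id2-GFP+ CDP and 12525 to 13404 in Id2-GFP- CDP. Of 11 markers of T cells, NK cells and innate lymphoid cells 2 rose in pre-CD8 and 1 in CDP by limma (4 and 6 with the set as a block), with summed intensities of 886 to 1333 in Id2-GFP+ pre-CD8, 588 to 817 in Id2-GFP- pre-CD8, 808 to 926 in Id2-GFP+ CDP and 470 to 473 in Id2-GFP- CDP. Of 12 markers of basophils, mast cells and eosinophils 0 passed in pre-CD8 and 1 rose in CDP by limma, while the block on the set gave 3 rising and 1 falling in pre-CD8 and 2 rising in CDP. Their summed intensity was 1156 to 2135 in Id2-GFP+ pre-CD8, 1039 to 1446 in Id2-GFP- pre-CD8, 1718 to 3133 in Id2-GFP+ CDP and 960.1 to 1314 in Id2-GFP- CDP. The part of these cell types in the Tcf4 and Lyl1 values was not tested.

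BMP signalling is known to induce Id1 and Id3, and its genes were counted with those of TGF-beta. Of 24 genes 4 fell and 1 rose by limma in the pre-CD8 comparison, where 6.26% of all genes were called. With the set as a block 6 fell and 2 rose, where 24.2% were called. The list median was -0.005, against -0.008 over all genes. The inhibitory Smad gene Smad7 fell by 1.42 ± 0.18 and the co-receptor gene Eng differed by -1.66 ± 0.22. Smad5 differed by -1.19 ± 0.21 and Smad3 by -1.44 ± 0.33, while the receptor gene Acvrl1 rose by 1.56 ± 0.22. The count of 5 went down to 2 without replicate 2 of Id2-GFP+ pre-CD8. Of 18 cofactors and regulators of E proteins 2 passed by limma in pre-CD8, beside 6.26% of all genes. With the set as a block 4 rose and 5 fell, beside 24.2% of all genes called. The zinc-finger repressor gene Zeb2, whose protein binds the same CACCTG form of the E-box, fell by 2.26 ± 0.41, and Cbfa2t3 rose as above. Neither passed without replicate 1 of Id2-GFP+ pre-CD8 or without replicate 1 of Id2-GFP- pre-CD8.

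Of 27 other helix-loop-helix genes 1 rose and 1 fell by limma in pre-CD8, where 6.26% of all genes were called, while the block on the set gave 5 rising and 2 falling (24.2% called). By limma Tfeb, a lysosomal regulator gene, rose by 1.10 ± 0.19, and Mxd4, a Max partner gene, fell by 1.45 ± 0.22. Neither passed without replicate 1 of Id2-GFP- pre-CD8 or without replicate 2 of Id2-GFP+ pre-CD8. The median of these 27 genes was 0.04. In CDP 0 passed by limma for the last 3 lists, and with the set as a block 1 to 4 genes rose and 2 fell in each of them.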

How the data were processed

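Total RNA of sorted bone marrow progenitors was labelled with a kit for small inputs and hybridised to Affymetrix arrays, per the labels' protocols. The authors deposited linear intensity values for 28853 probe sets, made with RMA in Affymetrix Expression Console, per the submitters' processing notes, which state no version. RMA compresses dim values. These intensity values were converted here to log2, as the design foresaw for a linear table, without further normalization. Probe sets annotated to more than 1 symbol (1621) or to no symbol (5443) were not used, and the brightest of a gene's probe sets was used. The number of arrays limits the precision.

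Groups came from the titles. A joint limma fit (version 3.58.1, R 4.3.3) of all arrays used an intensity-dependent prior, two-sided tests and Benjamini-Hochberg adjustment over 19938 genes, and was tested on simulated data. The simulated arrays were drawn independently, without an effect of the intensity set, so they do not show how the fit behaves with such an effect. Python 3.11.15 drew the figures. Members, lists and alternatives were chosen with earlier results of these data known. Named by rule were all members, Id2, the 3 genes most like each member and up to 4 called genes of a list with the smallest p. Lmo2, Siglech, Pax5, Ebf1, Gata1, Klf1, Flt3, Irf8, Cbfa2t3 and Smad3 were named after their values were seen. Alternatives were the prior, a filter on dim genes, quantile normalization, probe set averaging, fitting only the groups compared, the replicate number or the intensity set as a block, and leaving out each array.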

Additional observations from a re-analysis of the deposited data

How the results depend on the processing

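Without any change, the called genes numbered 1249 in the pre-CD8 reporter comparison, 119 in the CDP reporter comparison, 324 in pre-CD8 against CDP among Id2-GFP- cells, 0 in pre-CD8 against CDP among Id2-GFP+ cells, 357 in the pair of Id2-GFP+ pre-CD8 with Id2-GFP- CDP, 975 in the pair of Id2-GFP- pre-CD8 with Id2-GFP+ CDP and 29 in the interaction. After quantile normalization, the count of called genes moved to 2475 in the pre-CD8 reporter comparison, 196 in the CDP reporter comparison, 836 in pre-CD8 against CDP among Id2-GFP- cells, 23 in pre-CD8 against CDP among Id2-GFP+ cells, 907 in the pair of Id2-GFP+ pre-CD8 with Id2-GFP- CDP, 2021 in the pair of Id2-GFP- pre-CD8 with Id2-GFP+ CDP and 158 in the interaction. For the 7 members this setting gave 1 in the pair of Id2-GFP+ pre-CD8 with Id2-GFP- CDP and 2 in the pair of Id2-GFP- pre-CD8 with Id2-GFP+ CDP, as the number called. With the intensity set as a block, the count of called genes moved to 4822 in the pre-CD8 reporter comparison, 1566 in the CDP reporter comparison, 2486 in pre-CD8 against CDP among Id2-GFP- cells, 414 in pre-CD8 against CDP among Id2-GFP+ cells, 3154 in the pair of Id2-GFP+ pre-CD8 with Id2-GFP- CDP, 4376 in the pair of Id2-GFP- pre-CD8 with Id2-GFP+ CDP and 1492 in the interaction. For the 7 members this setting gave 1 in the CDP reporter comparison, 2 in the pair of Id2-GFP+ pre-CD8 with Id2-GFP- CDP and 3 in the pair of Id2-GFP- pre-CD8 with Id2-GFP+ CDP, as the number called. With the replicate block, the count of called genes moved to 157 in pre-CD8 against CDP among Id2-GFP- cells, 208 in the pair of Id2-GFP+ pre-CD8 with Id2-GFP- CDP, 642 in the pair of Id2-GFP- pre-CD8 with Id2-GFP+ CDP and 6 in the interaction. For the 7 members this setting gave 0 in the pre-CD8 reporter comparison and 0 in the pair of Id2-GFP- pre-CD8 with Id2-GFP+ CDP, as the number called. Among genes above the median, the count of called genes moved to 10 in pre-CD8 against CDP among Id2-GFP+ cells. For the 7 members this setting gave 1 in the pair of Id2-GFP+ pre-CD8 with Id2-GFP- CDP, as the number called. With only the groups compared in the fit, the members gave 1 in the pre-CD8 reporter comparison and 0 in the pair of Id2-GFP- pre-CD8 with Id2-GFP+ CDP, as the number called. Leaving out each array in turn gave 466 to 1313 in the pre-CD8 reporter comparison (lowest without Id2-GFP+ pre-CD8 replicate 2), 35 to 126 in the CDP reporter comparison (lowest without Id2-GFP- CDP replicate 1), 77 to 326 in pre-CD8 against CDP among Id2-GFP- cells (lowest without Id2-GFP- CDP replicate 2), 0 to 1 in pre-CD8 against CDP among Id2-GFP+ cells, 77 to 370 in the pair of Id2-GFP+ pre-CD8 with Id2-GFP- CDP (lowest without Id2-GFP- CDP replicate 1), 436 to 867 in the pair of Id2-GFP- pre-CD8 with Id2-GFP+ CDP (lowest without Id2-GFP- pre-CD8 replicate 2), 2 to 15 in the interaction, 0 to 2 members in the pre-CD8 reporter comparison and 0 to 1 members in the pair of Id2-GFP- pre-CD8 with Id2-GFP+ CDP. Signs that turned belonged to uncalled differences. After quantile normalization they were -0.034 for Id3 in the CDP reporter comparison, 0.026 for Lyl1 in pre-CD8 against CDP among Id2-GFP- cells and 0.049 for Tal1 in the interaction. Without 1 array the differences ranged as follows. For the pre-CD8 reporter comparison this was -0.33 to 0.094 for Id3. For the CDP reporter comparison this was -0.46 to 0.027 for Tcf3, -0.46 to 0.086 for Tcf12 and -0.13 to 0.14 for Id3. For pre-CD8 against CDP among Id2-GFP- cells this was -0.26 to 0.0075 for Tcf3, -0.47 to 0.0802 for Id1, -0.038 to 0.38 for Id3, -0.087 to 0.052 for Lyl1 and -0.19 to 0.16 for Tal1. For pre-CD8 against CDP among Id2-GFP+ cells this was -0.40 to 0.088 for Tcf3, -0.26 to 0.15 for Tcf4, -0.14 to 0.41 for Tcf12 and -0.099 to 0.049 for Tal1. For the pair of Id2-GFP+ pre-CD8 with Id2-GFP- CDP this was -0.29 to 0.19 for Tcf12, -0.18 to 0.37 for Id1 and -0.0802 to 0.19 for Id3. For the pair of Id2-GFP- pre-CD8 with Id2-GFP+ CDP this was -0.15 to 0.34 for Tcf3 and -0.046 to 0.37 for Id3. For the interaction this was -0.27 to 0.21 for Tcf3, -0.43 to 0.12 for Tcf12, -0.34 to 0.085 for Id3, -0.18 to 0.17 for Tal1 and -0.13 to 1.15 for Id2. The replicate numbers were checked as pairs, by the deviations of same-numbered arrays from their group means. These correlated at 0.69 and 0.71 within a reporter class and at -0.69 to -0.63 between classes. The numbers thus matched arrays within a class and were crossed between classes, so they do not pair the samples over all groups. Arrays of equal brightness correlated at 0.63 to 0.71 in every pair of groups, which is the crossed pairing that the set block fits. These are the same correlations with the sign turned between classes. The sets were split on the intensity of these same arrays, so the values are not a separate test of the block. The replicate block gave adjusted p-values of 0.0723 for Tcf4 and 0.0748 for Lyl1 in the pre-CD8 reporter comparison and 0.103 for Tcf4 in the pair of Id2-GFP- pre-CD8 with Id2-GFP+ CDP. The counts of list genes without 1 array were added after seeing the data. Id1 and Id3 lay below the median intensity of all genes, where values are compressed.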
